A study of Drosophila melanogaster with 88 samples.

Results

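The expression of 10 genes for making, storing, releasing and carrying fat was followed through fly heads and guts: FASN1, ACC, AcCoAS, Desat1, SREBP, mdy, Lsd-1, Lsd-2, bmm and apolpp. The genes were taken by symbol, from a list drawn up with earlier results of these data known, out of 17830 gene features in the male count table. All 10 were found there, and all 10 were found by gene identifier among the 17421 entries of each female table. All 10 also passed the filter on low values in each of the 4 sets of libraries that were fitted, so no member is missing from a count below.

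In insects fatty acids are built from acetyl-CoA. Acetyl-CoA synthetase (AcCoAS) supplies it from acetate, acetyl-CoA carboxylase (ACC) turns it into malonyl-CoA, fatty acid synthase (FASN1) extends the chain, and a desaturase (Desat1) places the double bond. SREBP is the membrane-bound transcription factor that activates such genes in flies when membrane phospholipid runs low. Diacylglycerol acyltransferase (midway, mdy) completes triglyceride, the perilipins Lsd-1 and Lsd-2 coat the lipid droplets that hold it, the lipase brummer (bmm) breaks it down, and apolipophorin (apolpp) is the protein of the main lipid carrier in fly blood. The fat body, which also lies in the head, is the chief fat store, and glia carry droplets too.

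RNA from whole heads or guts of Drosophila melanogaster was sequenced from the 3′ end of transcripts, in 88 libraries that form 22 groups of 4. Male heads came from flies labelled VAPWT or VAPP58S, called WT and P58S here, at days 5, 15 and 20. VAP is an endoplasmic reticulum protein that tethers other membranes, and the P58S change stands in for the human VAPB change of a familial motor neuron disease. Female heads and female guts came from the same 2 genotypes at days 5 and 20. A further set of male heads, at days 5 and 15, all carried VAPP58S and the Repo driver, which is active in glia. Its 4 arms were the driver alone (VAPP58SRepo) and the driver with a construct labelled KayKD, KayWT or KaySCR. These are given as knockdown, wild-type overexpression and KaySCR overexpression of kay, the fly Fos gene, and what the KaySCR construct changes is not described. The labels do not say how the VAP alleles are carried, how many flies were pooled or whether replicates came from separate vials. A p-value here therefore reflects only how far these libraries spread, which may be technical.

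Depth, in M reads (1 M is 1000000), ran from 2.48 to 16.5 M in the WT and P58S male heads, from 1.21 to 15.0 M in the kay set, from 0.201 to 6.82 M in female heads and from 0.937 to 9.46 M in female guts. A count of 0 allows up to 0.182 to 2.49 CPM (counts per 1000000 reads) in males, and up to 15.0 CPM in the shallowest female head library. Both shallowest libraries, with 0.201 and 0.386 M reads, were WT female heads at day 5. Replicate 3 of P58S male heads at day 5 stood apart from its group, with a chi-square per gene of 66 to 124 against the other 3 libraries, where these differed from each other by 8.22 to 16.2. Replicate 3 of WT female guts at day 20 stood apart likewise (58.4 to 108). The tissue labels matched the markers: 7 gut genes summed to between 66964 and 94839 CPM in female guts and to between 240 and 3981 CPM in female heads. Ovary and yolk markers summed to between 54604 and 119944 CPM in female heads and to at most 25.8 CPM in male heads. Values are CPM throughout, and in males they were scaled by library factors between 0.918 and 1.113. Changes are log2 fold changes with their standard error (SE), and a gene is called where its p, adjusted over all genes of the set by the method of Benjamini and Hochberg, is under 0.05. In whole tissue, fewer cells of a type and less RNA per cell cannot be told apart.

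In WT male heads FASN1, ACC and Desat1 rose with age, while AcCoAS was not called against day 5. FASN1 (chromosome 2L, 3056598 to 3068177 in dm6) read 379, 331, 352 and 358 CPM in the 4 day 5 libraries, 544, 500, 393 and 376 at day 15, and 687, 706, 637 and 630 at day 20. Every day 20 library lay above every younger one, while days 5 and 15 overlapped. The gene rose by day 15 (log2 0.35, SE 0.10, edgeR adjusted p = 0.0253) and further by day 20 (0.91, SE 0.10, adjusted p = 1.63e-06), a 1.87-fold difference from day 5. The day 15 call was lost without day 5 replicate 2 or 3 or without day 15 replicate 1 or 2, with values of 0.25 to 0.35 and adjusted p of 0.0585 to 0.129.

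ACC (chromosome 2R, 7974115 to 7991862), which makes the building block FASN1 uses, took the same course. It read 98.2, 123, 117 and 118 CPM at day 5, 174, 166, 153 and 130 at day 15, and 172, 182, 192 and 175 at day 20. Both older groups lay wholly above day 5. The rise was 0.45 (SE 0.11, edgeR adjusted p = 0.00667) at day 15 and 0.66 (SE 0.11, adjusted p = 0.000178) at day 20. Desat1 (chromosome 3R, 12439600 to 12447616) read 1040, 953, 1064 and 1082 CPM at day 5, 1419, 1388, 1404 and 1334 at day 15, and 1433, 1405, 1509 and 1260 at day 20. It reached its higher level by day 15 (0.42, SE 0.08, adjusted p = 0.000799) and stood no further up at day 20 (0.44, SE 0.08, adjusted p = 0.000535). These 3 enzymes were the members called at day 15, all higher, where 12.4% of the 9741 genes tested were called and 5.06% were called higher.

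In P58S male heads neither FASN1 nor ACC was called above day 5 at day 20. FASN1 read 424, 439, 502 and 376 CPM at day 5, 456, 520, 557 and 497 at day 15, and 481, 458, 507 and 507 at day 20. The 3 ages overlapped, and neither day 15 (0.22) nor day 20 (0.16, edgeR adjusted p = 0.308) differed from day 5 by a call. ACC read 118, 110, 112 and 88 CPM at day 5, 152, 141, 150 and 134 at day 15, and 137, 101, 120 and 118 at day 20. It was above day 5 in every library at day 15 (0.43, SE 0.11, adjusted p = 0.00841) and overlapped day 5 again at day 20 (0.15, adjusted p = 0.388). Desat1 in P58S ranged from 1093 to 1221 CPM at day 5, from 1189 to 1397 at day 15 and from 1185 to 1468 at day 20. It was called at neither older age against day 5, and at no age between the genotypes.

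**Figure D1:**
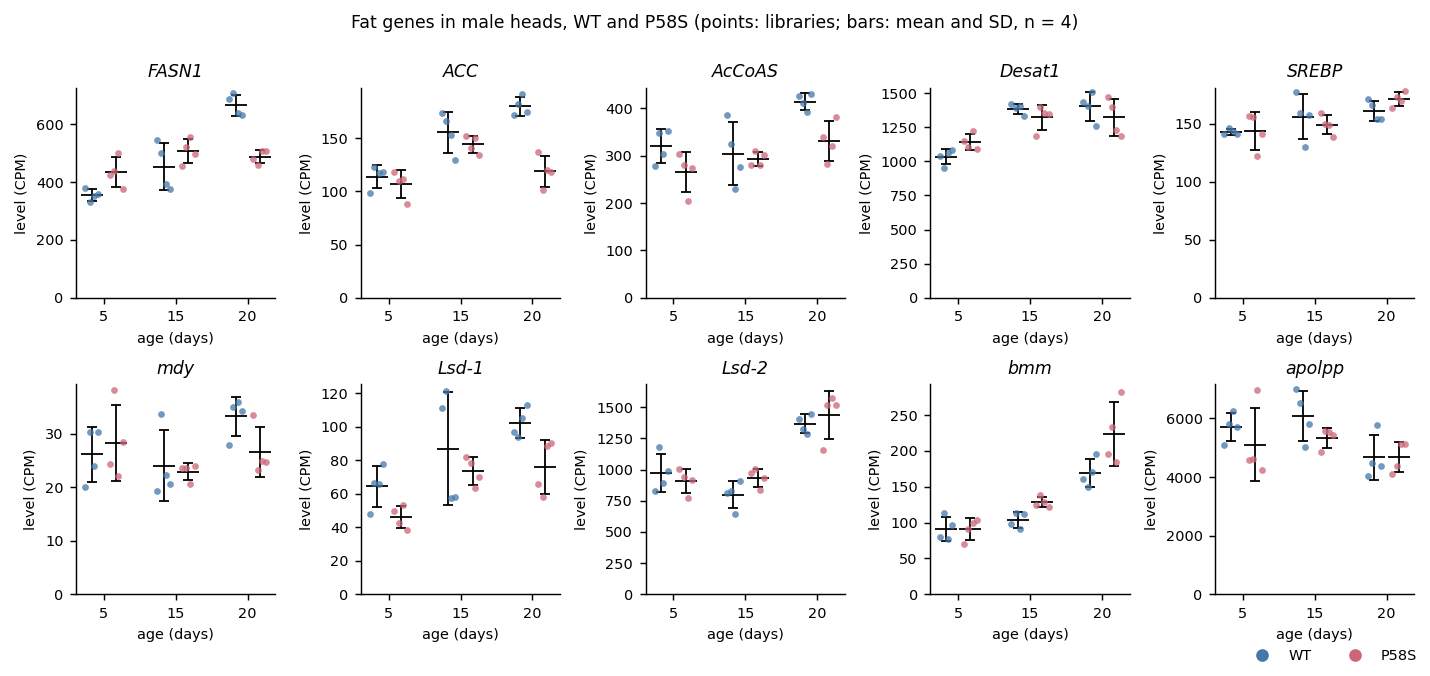
Levels of the 10 genes in WT and P58S male heads, in CPM (y axis, from 0, a scale of its own per gene) by age in days (x axis); points are libraries and bars the mean and SD of 4. At day 20 the 4 WT libraries of FASN1 (630 to 706 CPM) and of ACC (172 to 192 CPM) lie above all P58S libraries, while bmm is highest at day 20 in both genotypes.

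Set against WT of the same age, P58S heads therefore differed in these 2 enzymes at day 20. FASN1 stood at 488 ± 23.7 CPM in P58S and 665 ± 36.9 in WT (SD, n = 4 each), lower by a log2 change of -0.45 (SE 0.10, edgeR adjusted p = 0.0186). ACC stood at 119 ± 14.7 against 180 ± 8.75 CPM, a change of -0.60 (SE 0.11, adjusted p = 0.00155). The groups did not overlap for either gene. Both were called lower, where 1.76% of genes tested were called and 0.893% were called lower. The ACC call held without any 1 library. That of FASN1 was lost without WT replicate 1 or 2 or P58S replicate 1 or 2, with values of -0.44 to -0.42 and adjusted p of 0.0559 to 0.0788.

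The difference between ages was itself tested. For FASN1 the P58S effect at day 20 less that at day 5 was -0.74 (SE 0.15, edgeR adjusted p = 0.0259), the 1 member called where 0.205% of genes were called and 0.0513% were called lower. Without replicate 3 of P58S day 5, the library that stood apart, it was -0.67 (adjusted p = 0.0285). It was lost without WT day 5 replicate 2, 3 or 4, WT day 20 replicate 1 or 2, or P58S day 20 replicate 1 or 2, with values of -0.75 to -0.71 and adjusted p of 0.0541 to 0.0781. For ACC the same difference was -0.51 (adjusted p = 0.22) and was not called. A comparison of day 20 with day 15, added after the values were seen, gave -0.61 for FASN1 (edgeR adjusted p = 0.104, DESeq2 adjusted p = 0.0144) and -0.49 for ACC (edgeR adjusted p = 0.363), where 0.226% of genes were called and no member was by edgeR. Without WT day 15 replicate 1 FASN1 was called there (-0.71, edgeR adjusted p = 0.0201).

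At the younger ages no member was called between the genotypes by edgeR or by DESeq2. At day 5, 1.95% of genes were called and 3 members had an unadjusted p under 0.05: FASN1 (0.30, adjusted p = 0.135), Lsd-1 (-0.49, adjusted p = 0.198) and AcCoAS (-0.27, adjusted p = 0.289). At day 15, 1.02% of genes were called and the 1 such member was bmm (0.32, adjusted p = 0.496). Over all 9741 genes, 1638 had an unadjusted p under 0.05 at day 5 and 836 at day 15. The median change of the 10 was -0.05 at day 5, -0.06 at day 15 and -0.20 at day 20, beside 0.00 over all genes each time. At day 20 AcCoAS (-0.32, adjusted p = 0.298) and Lsd-1 (-0.41, adjusted p = 0.415) had groups that did not overlap, but neither was called. The 15 against 5 difference of the P58S effect called 0.103% of genes, none of the members, and none had an unadjusted p under 0.05 by edgeR. DESeq2 called no member there either.

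Droplet coat and lipase genes rose with age in both genotypes. The lipase bmm (chromosome 3L, 14776496 to 14786412) read 79.4, 113, 76.5 and 96.2 CPM in WT at day 5, 98.1, 113, 91.3 and 112 at day 15, and 161, 150, 170 and 196 at day 20. In P58S it read 69.7, 90.7, 98.8 and 104 CPM at day 5, 125, 139, 128 and 122 at day 15, and 195, 233, 184 and 282 at day 20. The oldest libraries were above all younger ones in each genotype, and in P58S day 15 also cleared day 5. By day 20 the gene had risen by 0.88 in WT (SE 0.14, edgeR adjusted p = 0.000147) and by 1.31 in P58S (SE 0.14, adjusted p = 8.46e-07), a 2.48-fold difference. P58S bmm was also called at day 15 (0.51, SE 0.14, adjusted p = 0.0167), a call lost without day 5 replicate 1 (0.40, adjusted p = 0.0666) or day 15 replicate 2 (0.47, adjusted p = 0.0566). The P58S effect on bmm at day 20 was 0.41 (adjusted p = 0.177) and its difference from day 5 was 0.42 (adjusted p = 0.45), so the 2 ageing changes were not shown to differ.

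The perilipin gene Lsd-2 (chromosome X, 15069127 to 15076220) rose late. In WT it read 825, 1177, 893 and 986 CPM at day 5, 811, 828, 646 and 911 at day 15, and 1409, 1328, 1284 and 1448 at day 20. In P58S it read 1006, 940, 772 and 917 CPM at day 5, 969, 1006, 837 and 931 at day 15, and 1154, 1514, 1575 and 1518 at day 20. Days 5 and 15 overlapped in both genotypes and day 20 lay above both. The day 20 rise was 0.49 in WT (SE 0.12, edgeR adjusted p = 0.00578) and 0.66 in P58S (SE 0.12, adjusted p = 0.000285). Day 20 against day 15, added after the values were seen, gave 0.78 in WT (SE 0.12, adjusted p = 0.000229) and 0.62 in P58S (SE 0.12, adjusted p = 0.00293).

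Lsd-1 (chromosome 3R, 23763857 to 23766662), the perilipin that in flies also takes part in hormone-driven lipolysis, was more variable. In WT it read 47.8, 66.4, 65.5 and 77.4 CPM at day 5, 111, 121, 57.2 and 58.2 at day 15, and 97, 93.5, 105 and 113 at day 20. In P58S it read 49.7, 42.5, 53.1 and 38.6 CPM at day 5, 81.9, 78, 63.1 and 70.1 at day 15, and 65.8, 58.1, 88.7 and 90 at day 20. In P58S both older groups cleared day 5, and in WT the day 15 group split into 2 high and 2 low libraries. It rose by 0.65 in WT at day 20 (SE 0.20, edgeR adjusted p = 0.032), by 0.66 in P58S at day 15 (SE 0.20, adjusted p = 0.0257) and by 0.73 in P58S at day 20 (SE 0.20, adjusted p = 0.0127). The WT call was lost without day 5 replicate 1, 2 or 3 or day 20 replicate 1, 3 or 4 (0.55 to 0.67, adjusted p 0.0531 to 0.104). The P58S call at day 15 was lost without day 5 replicate 2 or 4 or day 15 replicate 1 or 2 (0.60 to 0.63, adjusted p 0.0691 to 0.0734), and that at day 20 without day 20 replicate 4 (0.63, adjusted p = 0.0581).

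In all, WT heads at day 20 had 6 members called higher than at day 5 and none lower, where 10.6% of genes were called and 5.07% were called higher. The median change of the 10 was 0.47, beside 0.01 over all genes. P58S heads had 3 called higher at day 15, where 13.5% of genes were called and 5.97% were called higher, with a median of 0.18 beside 0.00. They had 3 called higher at day 20, where 16.0% were called and 7.19% were called higher, with a median of 0.23 beside 0.00. Between days 15 and 20, 4 members rose in WT and 2 in P58S, where 6.16% of genes were called in WT and 3.57% were called higher, and 6.75% and 3.77% in P58S. The 4 in WT were FASN1 (0.55, SE 0.10, edgeR adjusted p = 0.00194), bmm (0.71, SE 0.14, adjusted p = 0.00315), Lsd-2 and AcCoAS (0.44, SE 0.13, adjusted p = 0.0392). The 2 in P58S were bmm (0.80, SE 0.14, adjusted p = 0.00223) and Lsd-2. The AcCoAS call was lost without WT day 15 replicate 2, 3 or 4 or day 20 replicate 1, 2 or 4 (0.33 to 0.47, adjusted p 0.0522 to 0.177). Without replicate 3 of P58S day 5, the library that stood apart, all 6 P58S calls against day 5 held: ACC (0.44), bmm (0.55) and Lsd-1 (0.73) at day 15, and Lsd-2 (0.59), bmm (1.36) and Lsd-1 (0.80) at day 20. These ageing comparisons within a genotype share their day 5 or day 20 libraries.

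The remaining members moved less. AcCoAS (chromosome 3L, 21270722 to 21280243) read 279, 348, 303 and 351 CPM in WT at day 5, 386, 325, 230 and 276 at day 15, and 425, 411, 391 and 429 at day 20. In P58S it ranged from 204 to 304 CPM at day 5, from 280 to 310 at day 15 and from 282 to 382 at day 20. Its WT day 20 libraries all lay above day 5, without a call (0.37, edgeR adjusted p = 0.0698). SREBP (chromosome 3L, 19793935 to 19798979) ranged from 122 to 178 CPM over all 24 libraries and was called in no comparison of this set. The triglyceride enzyme gene mdy (chromosome 2L, 16816660 to 16826964) ranged from 19.4 to 38.2 CPM and was not called either. The carrier gene apolpp (chromosome 4, 1060969 to 1077273) ranged from 4047 to 7004 CPM, and its WT day 20 level, 4676 ± 764 against 5724 ± 479 CPM at day 5 (SD, n = 4), gave -0.29 (edgeR adjusted p = 0.17). Against day 15, WT apolpp was called lower by DESeq2 (-0.38, adjusted p = 0.044), and by edgeR only without day 20 replicate 3 (-0.50, adjusted p = 0.023).

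**Figure D2:**
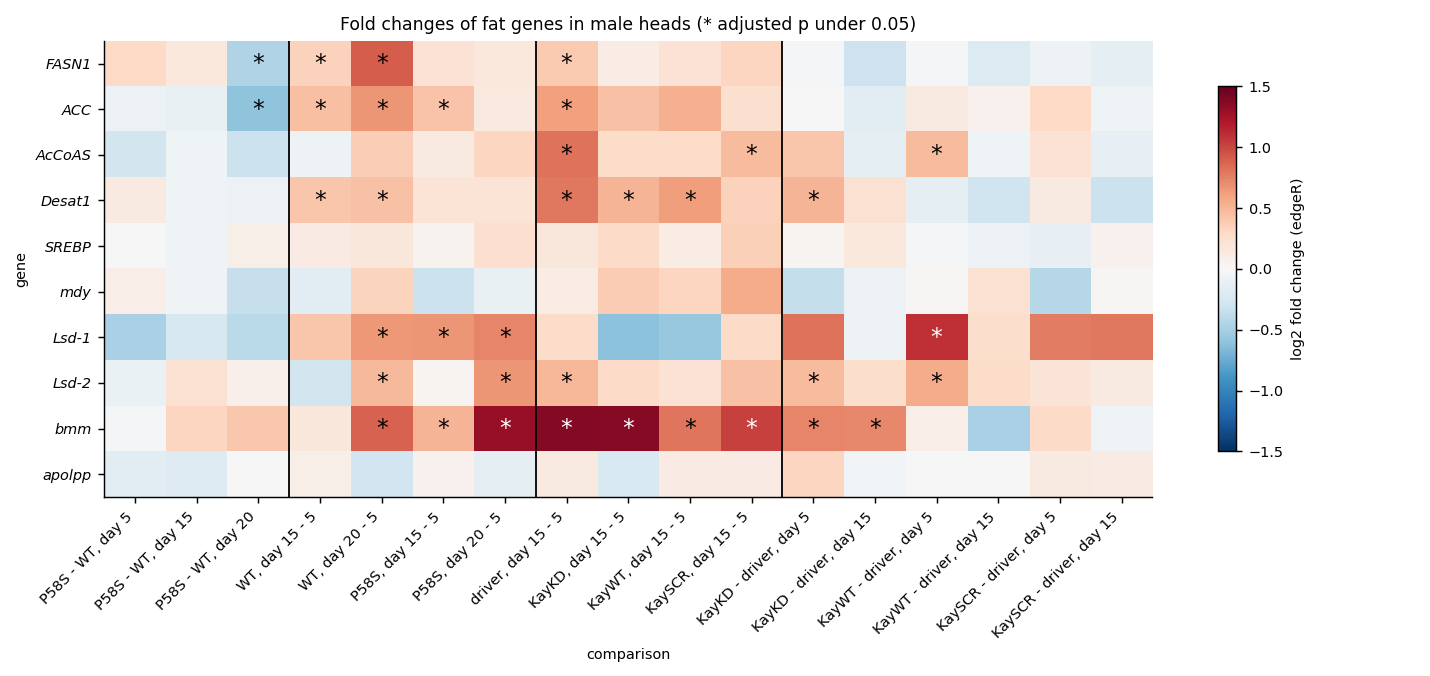
Log2 fold changes (colour, red higher and blue lower in the first-named group) of the 10 genes (rows) in 17 comparisons within male heads (columns), with an asterisk where the adjusted p is under 0.05. Asterisks on red gather in the ageing columns, with bmm called in 7 of those 8, and the 2 blue asterisks are FASN1 and ACC in P58S against WT at day 20.

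Other genes of the pathway, 54 in 4 lists for synthesis, storage and transport, oxidation and regulation, were tested in the same fits, and 52 passed the filter. In P58S against WT 1 of them was called at day 5, higher, and none at days 15 and 20, where 6 had an unadjusted p under 0.05 each time and DESeq2 called 0 and 1. Over all 9741 genes, 836 and 1115 had such a p at days 15 and 20. The gene at day 5 was sug, a sugar-responsive transcription factor (0.88, SE 0.23, edgeR adjusted p = 0.0474). With age 4 rose and 4 fell in WT at day 15, 7 rose and 2 fell in WT at day 20, 4 rose and 3 fell in P58S at day 15, and 5 rose and 3 fell in P58S at day 20. Named by the size of the change were mag, a lipase secreted in the gut (-3.57, SE 0.82, adjusted p = 0.0047, WT day 15), Lip4, a lipase induced in starved flies (1.08, SE 0.23, adjusted p = 0.00309, WT day 15), and Lk6, a kinase that limits fat stores in flies (1.04, SE 0.20, adjusted p = 0.00109, WT day 15). The mag libraries read 22.7, 0.827, 15.1 and 21.3 CPM in WT at day 5 and 1.63, 2.19, 0.719 and 0.369 at day 15, so 1 day 5 library lay among the older ones.

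Cell type markers moved beside these changes. Muscle markers fell with age: 4 of 6 in WT at day 20 (Mhc, Mlc2, Act88F and bt), their sum going from 2042 to 2346 CPM at day 5 to 1548 to 1648 CPM at day 20. In P58S at day 20, 3 of 6 fell and the sum went from 1982 to 2383 to 1740 to 1877 CPM. Of 6 neuron markers 2 fell in WT at day 20 and 3 in P58S, and of 6 glia markers 2 fell in each. In P58S at day 20, 4 of the 6 gut markers tested fell and 1 rose. Of the fat body markers, to rose in WT at day 20 (0.93), fit rose in P58S at days 15 (1.92) and 20 (2.31), and Lsp2 fell in P58S at day 15 (-1.90). Oenocyte markers summed to between 9.33 and 29.7 CPM over these libraries, with eloF at 0 in every group and Cyp4g1 called higher in WT at day 15 (2.76, edgeR adjusted p = 0.00801). At day 15, 2 neuron markers fell in WT and 5 in P58S, and photoreceptor markers gave 1 higher in WT and 3 lower in P58S. The photoreceptor markers gave 1 higher in WT and 1 lower in P58S at day 20. Between the genotypes, the fat body marker takeout (to) was lower in P58S by -5.09, -3.99 and -6.35 at days 5, 15 and 20 and fit was higher at days 15 and 20 (2.34 and 1.91), with 2 of 5 tested called at day 20. The muscle marker TpnC41C was called higher in P58S at days 15 (0.87) and 20 (0.82). At day 5 the glia marker alrm was called lower (-0.72) and the photoreceptor markers ninaE (0.68) and trp (0.33) higher. The part of any of these markers in the changes of the fat genes was not tested.

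Fat body markers and Lsd-1 were high in the same libraries of some groups. In WT at day 15 their sum was 997 and 1050 CPM in replicates 1 and 2, the 2 libraries with Lsd-1 at 111 and 121 CPM, and 262 and 269 CPM in replicates 3 and 4, with Lsd-1 at 57.2 and 58.2. FASN1 was also higher in replicates 1 and 2 of that group (544 and 500 against 393 and 376 CPM). In WT at day 5 the sum was 895 to 1278 CPM with Lsd-1 at 47.8 to 77.4 CPM. In P58S the sum was 358, 391, 1169 and 422 CPM at day 5, and the library at 1169 had the highest Lsd-1 of its group, 53.1 CPM. At day 15 a P58S library with a sum of 370 CPM had Lsd-1 at 81.9 CPM, the highest of its own group. The sum holds to and fit, which differed between the genotypes at day 15 (-3.99 and 2.34), so sums of WT and P58S libraries are not like for like. The part of the fat body in the Lsd-1 changes was not tested.

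**Figure D3:**
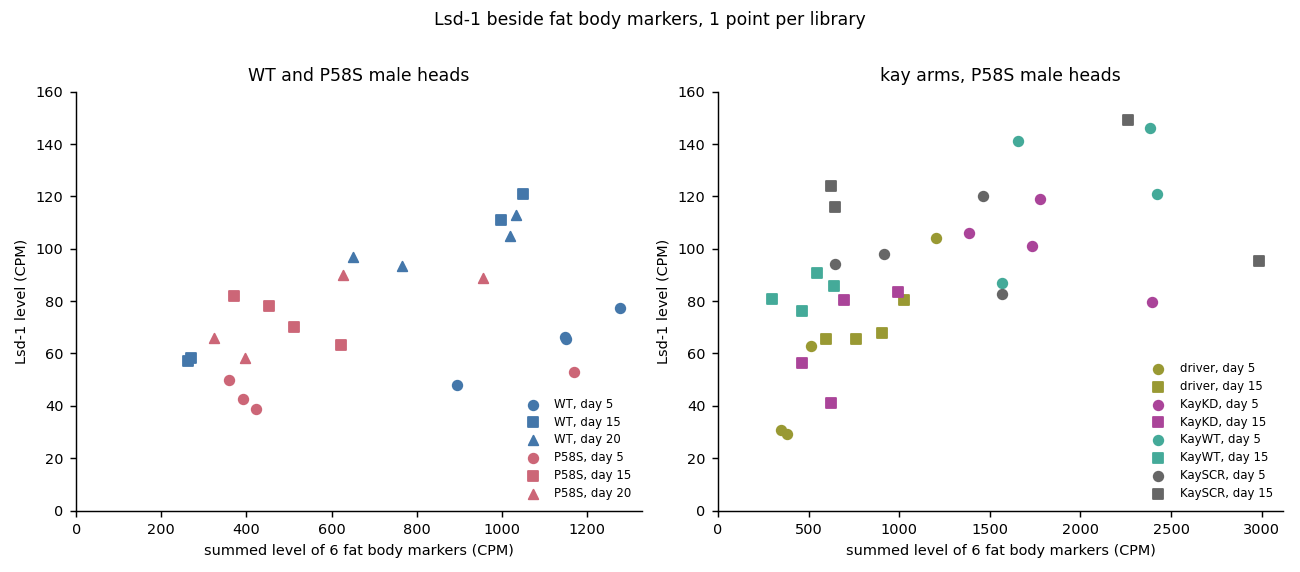
Lsd-1 (y axis, CPM) against the summed level of 6 fat body markers (x axis, CPM), 1 point per library, for WT and P58S male heads (left) and the kay arms (right, a wider x axis), coloured by genotype or arm with a symbol for each age. The 2 low WT day 15 libraries (57.2 and 58.2 CPM) and the driver libraries at 29.3 and 30.9 CPM have marker sums of 262 to 380 CPM. A P58S day 15 library at 81.9 CPM has a sum of 370 CPM.

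In the kay set the first check was kay itself. Its mean was 208 CPM at day 5 and 268 at day 15 with the driver alone, 199 and 259 in the arm labelled KayKD, 229 and 272 in the arm labelled KayWT, and 293 and 289 in the arm labelled KaySCR. The level of kay in the arms labelled KayKD and KayWT was not called different from the driver: KayKD gave -0.06 (edgeR adjusted p = 0.833) and -0.05 (adjusted p = 0.916), and KayWT gave 0.14 (adjusted p = 0.556) and 0.02 (adjusted p = 0.98). KaySCR was higher at day 5 (0.49, SE 0.11, adjusted p = 0.014) and not at day 15 (0.11, adjusted p = 0.937). These are reads from whole heads, while the driver acts in glia, so directions below belong to the arms as labelled.

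Against the driver control every call among the 10 genes was higher. The lipase bmm read 56.2, 43.5, 72 and 60.1 CPM with the driver at day 5 and 90.7, 92.2, 92.6 and 106 in the arm labelled KayKD, with no overlap. At day 15 it read 141, 196, 125 and 138 CPM with the driver and 230, 178, 213 and 362 in KayKD, where 1 driver library lay inside the KayKD range. The arm was higher by 0.73 (SE 0.17, edgeR adjusted p = 0.0106) at day 5 and 0.72 (SE 0.16, adjusted p = 0.0164) at day 15. The day 5 call was lost without driver replicate 2 (0.61, adjusted p = 0.0718). The day 15 call was lost without driver replicate 1, 3 or 4 (0.64 to 0.69, adjusted p 0.0715 to 0.0884) or without KayKD replicate 4, the library at 362 CPM (0.46, adjusted p = 0.174).

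Desat1 in the arm labelled KayKD read 1157, 1254, 1398 and 1396 CPM at day 5, wholly above the driver's 821, 964, 928 and 945, a difference of 0.51 (SE 0.10, edgeR adjusted p = 0.00278). At day 15 the 2 arms read 1837, 1761, 1742 and 2065 against 1584, 1552, 1412 and 1780 CPM and overlapped (0.23). Lsd-2 at day 5 read 1136, 808, 689 and 802 CPM with the driver, 1224, 1318, 1163 and 1047 in KayKD and 1390, 1262, 1199 and 1225 in KayWT. Both arms were called higher, KayKD by 0.47 (SE 0.13, adjusted p = 0.0363) with overlap and KayWT by 0.56 (SE 0.13, adjusted p = 0.00787) without. The KayKD call on Lsd-2 was lost without driver replicate 2, 3 or 4 or KayKD replicate 1, 2 or 3 (0.37 to 0.47, adjusted p 0.0705 to 0.176). In KayKD 3 members were called higher at day 5, where 3.58% of 9796 genes tested were called and 1.77% were called higher, and 1 at day 15, where 1.25% were called and 0.633% were called higher.

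Lsd-1 and AcCoAS were the other members called in the arm labelled KayWT at day 5. Lsd-1 read 104, 29.3, 30.9 and 62.7 CPM with the driver and 86.8, 141, 146 and 121 in KayWT, higher by 1.09 (SE 0.26, edgeR adjusted p = 0.00838), although driver replicate 1 lay inside the KayWT range. AcCoAS read 215, 194, 234 and 175 CPM with the driver and 245, 328, 313 and 248 in KayWT, with no overlap (0.47, SE 0.13, adjusted p = 0.0216). The Lsd-1 call was lost without driver replicate 2 (0.87, adjusted p = 0.0564), and that of AcCoAS without driver replicate 2 or 4 or KayWT replicate 2 or 3 (0.40 to 0.45, adjusted p 0.0639 to 0.103). In KayWT 3 members were called at day 5, all higher, where 5.59% of genes were called and 3.01% were called higher.

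Driver replicate 1 at day 5 stood high for Lsd-1, and its fat body markers summed to 1203 CPM, beside 380, 350 and 516 in replicates 2 to 4. Without it the KayKD difference in Lsd-1 at day 5, 0.81 and not called with all libraries (edgeR adjusted p = 0.0738), was 1.31 (adjusted p = 0.000932). The same markers summed to between 1386 and 2396 CPM in KayKD and between 1565 and 2420 CPM in KayWT at day 5, with Lsp2 and Obp99b called higher in both (2.43 and 1.22 in KayKD, 2.44 and 1.65 in KayWT) and Fbp1 at 0 in the driver and KayKD libraries. At day 15 the sums were 596 to 1025 CPM with the driver, 464 to 991 in KayKD and 296 to 640 in KayWT, and Lsd-1 read 65.4 to 80.3, 40.9 to 83.3 and 76.2 to 90.9 CPM. Muscle markers at day 5 were also lower than with the driver, 3 of 6 called in KayKD and 2 of 6 in KayWT. In KayWT at day 5 the neuron markers Syt1 (-1.28) and brp (-0.41), the glia marker nrv2 (-0.69) and the photoreceptor marker norpA (-0.41) were called lower too, and Arr1 (0.49) higher. At day 15 KayKD had the photoreceptor marker ninaE called higher (1.10) and the glia marker Eaat1 lower (-0.54). KayWT at day 15 had fit (-1.71) and Syt1 (-0.67) called lower. KaySCR, where no member was called against the driver, had marker differences at day 5 too. There Act88F (-0.95), bt (-0.45) and Syt1 (-1.06) were called lower and ninaC (0.41) higher. Its fat body markers summed to 648 to 1565 CPM at day 5 and 626 to 2985 CPM at day 15, without a call on any of them. The part of these cell types in the differences between arms was not tested.

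**Figure D4:**
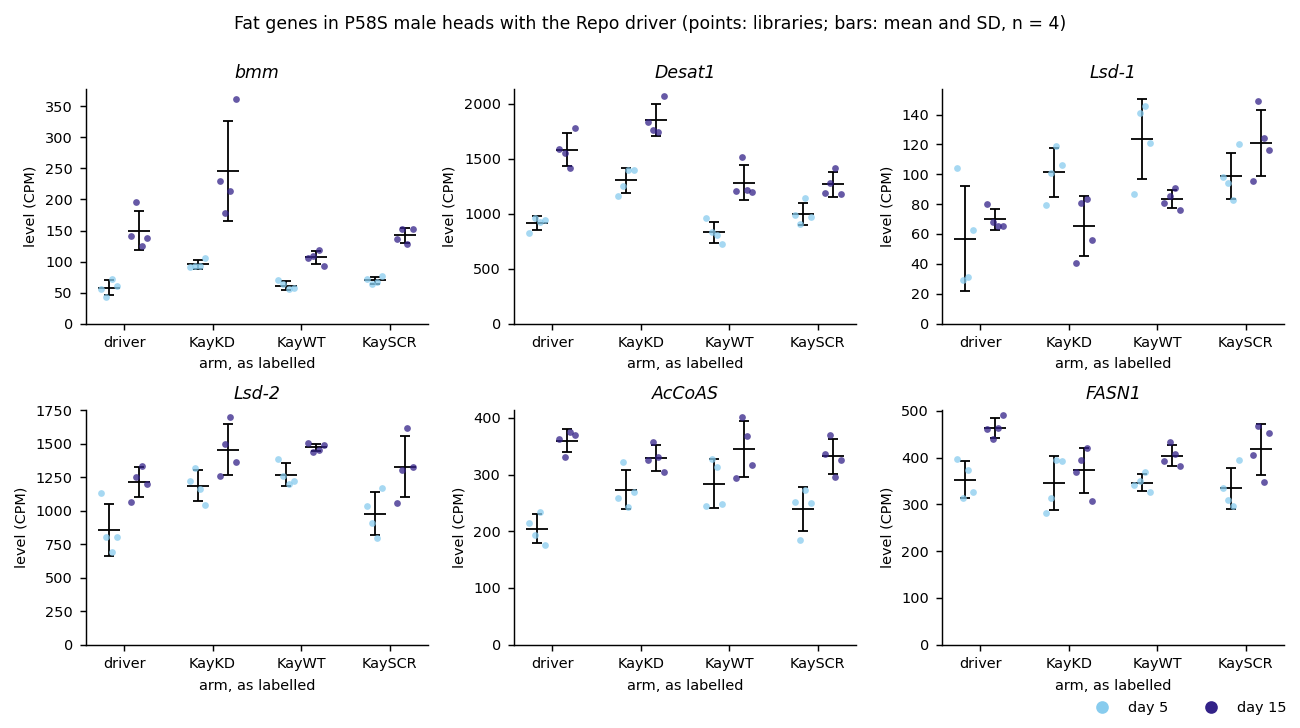
Levels of 6 of the genes in the kay set, in CPM (y axis, from 0, a scale of its own per gene) by arm as labelled (x axis) and age (light for day 5, dark for day 15); points are libraries and bars the mean and SD of 4. For bmm the 4 KayKD libraries at day 5 (90.7 to 106 CPM) lie above all other day 5 libraries, and Lsd-1 with the driver at day 5 spreads from 29.3 to 104 CPM.

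No member was called by edgeR or DESeq2 in the arm labelled KayWT at day 15 or in the arm labelled KaySCR at either age. In KayWT at day 15, 1.48% of genes were called and 3 members had an unadjusted p under 0.05, among them bmm (-0.49, adjusted p = 0.17) and Desat1 (-0.30, adjusted p = 0.167). In KaySCR 2.6% of genes were called at day 5, with Lsd-1 the 1 such member (0.77, adjusted p = 0.104), and 0.868% at day 15, with Lsd-1 (0.79, adjusted p = 0.171) and Desat1 (-0.32, adjusted p = 0.163). Over all 9796 genes, 949 had an unadjusted p under 0.05 in KayWT at day 15, and 1586 and 796 in KaySCR at days 5 and 15. The median change of the 10 was 0.37 in KayKD at day 5 beside 0.00 over all genes, and between -0.06 and 0.16 in the other 5 comparisons. All 3 arms share the driver libraries as their control.

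A direct comparison of the arms labelled KayKD and KayWT, which share no library, was added after the values were seen. KayWT bmm read 70.1, 63.1, 55.2 and 56.9 CPM at day 5 and 106, 109, 119 and 93.5 at day 15, and every KayKD library was higher at both ages. KayKD was higher by 0.63 (SE 0.17, edgeR adjusted p = 0.0279) at day 5 and by 1.20 (SE 0.16, adjusted p = 1.4e-05) at day 15, a 2.31-fold difference. Desat1 in KayWT read 957, 831, 805 and 725 CPM at day 5 and 1201, 1516, 1212 and 1196 at day 15, again below every KayKD library, and KayKD was higher by 0.65 (SE 0.10, adjusted p = 0.000121) and 0.53 (SE 0.10, adjusted p = 0.0018). Of the markers, fit was lower in KayKD and Syt1 (0.82) and nrv2 (0.53) higher at day 5, and Act88F, Syt1 (0.76) and ninaE were higher at day 15. Their part was not tested. These 2 genes were the members called by edgeR, where 3.24% of genes were called at day 5 and 1.76% were called higher, and 2.31% and 1.28% at day 15. The bmm call at day 5 was lost without KayKD replicate 3 or 4 or KayWT replicate 2, 3 or 4 (0.57 to 0.64, adjusted p 0.0596 to 0.0898).

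In all 4 arms bmm rose with age, with every day 15 library above every day 5 library of its arm. The rise was 1.38 with the driver (SE 0.17, edgeR adjusted p = 8.13e-07), 1.37 in KayKD (SE 0.17, adjusted p = 1.05e-06), 0.80 in KayWT (SE 0.16, adjusted p = 0.00451) and 1.02 in KaySCR (SE 0.16, adjusted p = 0.000161). KaySCR bmm read 72.2, 63.7, 67.5 and 76.5 CPM at day 5 and 136, 152, 129 and 152 at day 15. Desat1 rose by 0.79 with the driver (SE 0.10, adjusted p = 1.95e-06), by 0.51 in KayKD (SE 0.10, adjusted p = 0.00154) and by 0.63 in KayWT (SE 0.10, adjusted p = 0.000189). KaySCR gave 0.34 without a call by edgeR (adjusted p = 0.0778), where DESeq2 called it higher (0.34, adjusted p = 0.028). KaySCR libraries read 989, 901, 1140 and 968 CPM and then 1187, 1275, 1417 and 1182.

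With the driver alone 4 more members rose. The day 5 driver libraries are also the control of the day 5 arm differences above, so these calls and those are not independent. AcCoAS went from 215, 194, 234 and 175 to 362, 330, 375 and 370 CPM (0.81, SE 0.13, edgeR adjusted p = 5.12e-05), and ACC from 117, 98, 69.3 and 83.4 to 132, 123, 136 and 173 CPM (0.61, SE 0.16, adjusted p = 0.014). Lsd-2 went to 1065, 1254, 1334 and 1199 CPM (0.50, SE 0.13, adjusted p = 0.0156), and FASN1 from 397, 314, 374 and 326 to 462, 439, 463 and 491 CPM (0.39, SE 0.12, adjusted p = 0.0377). The older libraries cleared the younger ones for AcCoAS, ACC and FASN1 but not for Lsd-2. The calls on Lsd-2 (without day 5 replicate 2 or 3 or day 15 replicate 2 or 3, 0.40 to 0.48, adjusted p 0.0502 to 0.0947) and ACC (without day 5 replicate 3 or day 15 replicate 4, 0.49 to 0.50, adjusted p 0.076 to 0.0764) each rested on single libraries. That on FASN1 was lost without any 1 of day 5 replicates 2, 3 and 4 or any day 15 library, with values of 0.34 to 0.42 and adjusted p of 0.0554 to 0.142.

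In KaySCR AcCoAS was the other member called with age, going from 251, 184, 273 and 249 to 336, 370, 296 and 325 CPM (0.47, SE 0.13, edgeR adjusted p = 0.0428). That call was lost without replicate 1, 2 or 4 of either age (0.36 to 0.49, adjusted p 0.07 to 0.228). Calls appeared in this arm for Lsd-2 without day 5 replicate 4 (0.54) or day 15 replicate 1 (0.53), for Desat1 without day 5 replicate 3 (0.41) and for SREBP without day 15 replicate 3 (0.43). The members called, all higher, were 6 with the driver, where 6.07% of genes were called and 2.75% were called higher, 2 in KayKD (5.74% and 2.88%), 2 in KayWT (1.59% and 0.612%) and 2 in KaySCR (1.67% and 0.521%). The difference of each arm's effect between the ages called no member by edgeR or DESeq2, where 0.153% of genes were called for KayKD, 0.112% for KayWT and 0.0612% for KaySCR. There 3, 3 and 1 members had an unadjusted p under 0.05, as had 990, 645 and 567 of all 9796 genes. With no member called, the arms were not shown to age differently. With the driver all 6 muscle markers fell over the same days, their sum going from 2376 to 2699 CPM at day 5 to 1378 to 1463 CPM at day 15. Muscle markers were also called lower with age in KayKD (3 of 6), KayWT (3 of 6) and KaySCR (4 of 6). Of the 5 fat body markers tested, Obp99b fell in KayKD (-2.30), Lsp2 (-3.94), fit (-1.92) and Obp99b (-1.92) fell in KayWT, and Apoltp rose with the driver (0.67) and in KayWT (0.58). The glia marker nrv2 fell in all 4 arms, by log2 changes between -0.85 and -0.55. The part of these markers was not tested.

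FASN1 and ACC ranged from 282 to 491 and from 69.3 to 173 CPM over the 32 libraries of the kay set, and neither was called between an arm and the driver. In KayKD FASN1 read 282, 314, 395 and 393 CPM at day 5 and 370, 395, 420 and 308 at day 15. SREBP ranged from 107 to 193 CPM, mdy from 16.9 to 55.2 and apolpp from 4710 to 8214, with no call in the set by edgeR. DESeq2 called SREBP with age in KaySCR (0.36, adjusted p = 0.0367) and apolpp in KayKD against KayWT at day 5 (0.32, adjusted p = 0.0458).

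Of the 52 other pathway genes tested, 4 were higher and 0 lower than the driver in KayKD at day 5, 2 and 1 in KayKD at day 15, 2 and 1 in KayWT at each age, 2 and 2 in KaySCR at day 5, and 2 and 0 in KaySCR at day 15. Named by the size of the change were Dgat2, a diacylglycerol acyltransferase (-3.35, SE 0.83, edgeR adjusted p = 0.0129, KayWT day 5), Agpat4, an acyltransferase of glyceride synthesis (-1.83, SE 0.48, adjusted p = 0.0442, KayKD day 15), and AkhR, the receptor of the fat-mobilising hormone (1.33, SE 0.21, adjusted p = 0.000156, KayWT day 5). AkhR read 23.3, 11.5, 14.8 and 22.9 CPM with the driver and 43.1, 57, 41.5 and 42.7 in KayWT at day 5, wholly apart. It was not particular to that arm. AkhR was also called higher than the shared driver in KayWT at day 15 (1.01) and in KayKD at day 5 (0.74). The same held in KaySCR at days 5 (0.87) and 15 (1.03), while KayKD at day 15 had no call on it. Dgat2 rested on 4 to 17 reads per KayWT library and Agpat4 on 4 to 18 per KayKD library, and DESeq2 called neither of these differences. KayKD against KayWT had 1 higher at day 5 and 3 higher at day 15, among them Men, the malic enzyme that supplies reducing power for fatty acid synthesis (0.75, SE 0.13, adjusted p = 0.000431, and 1.08, SE 0.13, adjusted p = 1.09e-06).

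With age 5 of these genes rose and 3 fell with the driver, 6 rose and 3 fell in KayKD, 1 rose and 1 fell in KayWT, and none was called in KaySCR by edgeR. Lk6 rose in KayKD (1.33, SE 0.21, edgeR adjusted p = 0.000108), going from 3401, 3389, 3945 and 3286 to 6272, 7348, 7485 and 14163 CPM. Dgat2 fell with the driver (-2.74, SE 0.82, adjusted p = 0.0386). The gut lipase mag in KayKD went from 6.66, 0, 0 and 0 to 23.9, 4.95, 25.2 and 140 CPM, a fitted 4.71 (SE 1.3, adjusted p = 0.0246) whose size depends on how counts of 0 are treated. The fitted difference between KayKD and KayWT at day 15 was 4.70 (SE 1.21, adjusted p = 0.028), where KayWT read 4.41, 0.583, 1.47 and 0.214 CPM.

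Female heads gave fewer calls. The tests here are limma on log2(CPM + 1), which understates changes of low genes, over 9640 genes. With age in WT, Lsd-2 went from 1035, 678, 1062 and 981 to 1636, 1699, 1673 and 2028 CPM, and Lsd-1 from 98.8, 34.9, 89.3 and 51.8 to 167, 234, 125 and 246 CPM. For both perilipins all 4 day 20 libraries lay above all day 5 libraries. Lsd-2 rose by 0.92 (SE 0.20, limma adjusted p = 0.0208) and Lsd-1 by 1.54 (SE 0.36, adjusted p = 0.0379), the 2 members called where 0.975% of genes were and 0.591% were called higher.

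This comparison uses both shallowest libraries, WT day 5 replicates 2 and 4, where the Lsd-1 value of replicate 2 rests on 7 reads. The median over all genes was 0.35, and relative to it the changes were 0.58 for Lsd-2 and 1.20 for Lsd-1. That median was 0.55 with 0.1 CPM added in place of 1, 0.18 with 5 CPM and 0.12 by edgeR on the whole reads. These relative values therefore depend on how low values are treated. Without both shallowest libraries, an alternative chosen after the depths were seen, Lsd-2 was 0.74 (adjusted p = 0.104) and Lsd-1 0.98 (adjusted p = 0.122). The Lsd-2 call was also lost without day 20 replicate 1, 2 or 4 (0.85 to 0.95, adjusted p 0.0512 to 0.0882), and that of Lsd-1 without day 5 replicate 4 or day 20 replicate 1, 2 or 4 (1.41 to 1.60, adjusted p 0.0659 to 0.121). Muscle markers summed to 3018 to 4068 CPM at day 5 and 1404 to 2054 CPM at day 20 in these heads, and fat body markers to 893 to 1478 and 1074 to 2532 CPM, with Fbp1 at 0 at day 5. The ovary markers Vm26Aa (-6.13, SE 0.99) and Vm26Ab (-6.17, SE 0.99) were called lower at day 20 (limma adjusted p = 0.00213 each). Their part was not tested.

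In P58S female heads the carrier gene apolpp rose with age. It read 7504, 7138, 7601 and 7860 CPM at day 5 and 10952, 11997, 10382 and 9761 at day 20, without overlap, a change of 0.51 (SE 0.08, limma adjusted p = 0.0024), the 1 member called where 0.27% of genes were and 0.124% were called higher. In WT it read 8173, 9528, 9282 and 7786 CPM at day 5 and 10085, 10265, 11605 and 11099 at day 20, also without overlap (0.31, adjusted p = 0.0559). It was called without day 5 replicate 3 (0.34, adjusted p = 0.0393). The all-gene median of 0.35 there moved with the treatment of low values, as given above. Desat1 in P58S read 1303, 956, 978 and 965 CPM and then 1487, 1692, 1693 and 1757 (0.67, adjusted p = 0.605), and was called where both shallowest WT libraries were left out of the shared fit (adjusted p = 0.0107). In P58S bmm ranged from 73.2 to 126 CPM and then from 141 to 237, without overlap or a call. WT bmm ranged from 0 to 236 and then from 121 to 264 CPM. P58S Lsd-1 (85.4 to 141, then 130 to 229 CPM) and Lsd-2 (603 to 1286, then 1095 to 1520 CPM) overlapped and were not called. The difference of the ageing changes between the genotypes called no gene in limma and none by edgeR on the whole reads, and no member had an unadjusted p under 0.05. Fat body markers in P58S summed to 989 to 1382 CPM at day 5 and 1493 to 3091 CPM at day 20, and their part was not tested.

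P58S against WT called no member in female heads at either age, by limma or by edgeR on the whole reads, where limma called 0.0519% of genes at day 5 and 0.0311% at day 20. At day 5, 2 members had an unadjusted p under 0.05, and at day 20, 1, as had 1396 and 492 of all 9640 genes. The all-gene median of this comparison was 0.65 at day 5, the age with both shallow WT libraries, and 0.05 without them. Relative to it 2 of the 10 members lay above at day 5, and at day 20, with a median of 0.16, none did. The day 5 median was 1.26 with 0.1 CPM added in place of 1, 0.31 with 5 CPM and 0.19 by edgeR on the whole reads. It moved with how low values were treated, so these counts do not show a deficit of the members. The fat body marker to was called lower in P58S heads at days 5 (-4.27) and 20 (-5.63), and its part was not tested. FASN1 at day 20 read 622, 599, 707 and 1094 CPM in WT and 747, 795, 721 and 607 in P58S, so the groups overlapped (-0.04), and ACC was -0.18. The sexes were sequenced with different kits and tested apart, so the male difference in FASN1 and ACC was not tested against the female one.

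In female guts no member was called in any comparison, over 9036 genes, by limma or by edgeR on the whole reads. The nearest was apolpp in P58S against WT at day 5, with 362, 308, 350 and 390 CPM in WT and 167, 153, 208 and 196 in P58S. The groups were wholly apart, at 352 ± 34.2 and 181 ± 25.4 CPM (SD, n = 4), and the difference of -0.96 (SE 0.20) had a limma adjusted p of 0.0528 where 0.133% of genes were called. Desat1 was also apart, at 497, 396, 471 and 572 against 353, 293, 275 and 330 CPM (-0.62, adjusted p = 0.604), and 3 members had an unadjusted p under 0.05, as had 265 of all 9036 genes. Fat body markers summed to 27.2 to 37.0 CPM in those WT guts and to 18.6 to 25.1 CPM in those P58S guts, with Fbp1 at 0 in P58S. Of them only to was called, lower in P58S (-2.66, SE 0.52, limma adjusted p = 0.0312). The part of these markers was not tested.

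At day 20 gut apolpp overlapped, at 355, 285, 364 and 204 CPM in WT and 215, 277, 375 and 297 in P58S (-0.05), and no member had an unadjusted p under 0.05 where 0.365% of genes were called. With age its change was 0.67 in P58S guts (limma adjusted p = 0.131) and -0.25 in WT guts (adjusted p = 0.712). The difference between these was 0.92 (adjusted p = 0.999). Ageing called 0.21% of genes in WT guts and 0.299% in P58S guts, with 0 and 2 members at an unadjusted p under 0.05, and the difference between genotypes called 0.0% with 1 such member. Over all 9036 genes, 925 had such a p in WT, 1004 in P58S and 276 for the difference.

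Of the other pathway genes 51 were tested in females. The calls were Jabba, a droplet protein that holds histones, higher with age in WT heads (1.20, SE 0.28, limma adjusted p = 0.0336), and mag, lower with age in WT guts (-0.99, SE 0.20, adjusted p = 0.0323). Gut mag read 647, 1064, 1146 and 668 CPM at day 5 and 409, 422, 473 and 417 at day 20, with no overlap, where WT female heads read 7.77 to 44.9 CPM at day 5.

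**Figure D5:**
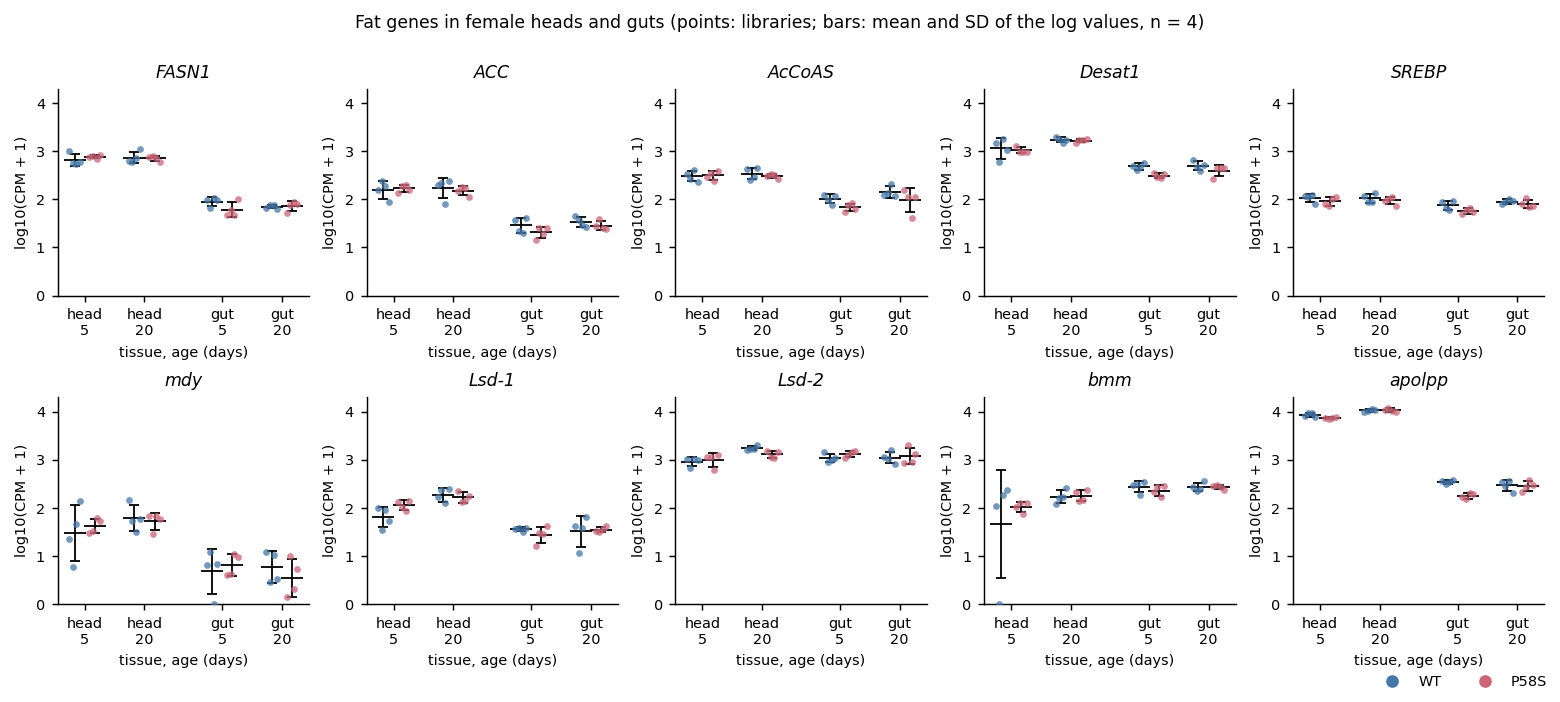
Levels of the 10 genes in female heads and guts as log10(CPM + 1) (y axis, a log scale) by tissue and age (x axis), WT blue and P58S red; points are libraries and bars the mean and SD of the log values of 4. The gene apolpp stands between 7138 and 11997 CPM in heads and between 153 and 390 CPM in guts, and Lsd-2 is at a like level in both. The bmm point at 0 is 1 WT day 5 head library of 0.201 M reads. A count of 0 there allows up to 15.0 CPM, while the median of its group is 148 CPM.

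Levels in female heads and guts are given side by side as ranges, although the 2 tables were normalised separately and no test was made between them. The share of all genes with ranges apart was not counted, so ranges apart are not read as a trait of these genes. Over 16 libraries each, apolpp ranged from 7138 to 11997 CPM in heads and from 153 to 390 CPM in guts. FASN1 ranged from 549 to 1094 CPM in heads and from 46 to 107 CPM in guts. ACC (80.8 to 244 against 13.4 to 44.1 CPM), AcCoAS (233 to 436 against 40.6 to 209) and mdy (4.98 to 144 against 0 to 11.2) also had lower ranges in guts, the last with some overlap. Desat1 overlapped at 593 to 1957 CPM in heads and 263 to 649 in guts, as did SREBP (70.1 to 137 and 47.5 to 107) and Lsd-1 (34.9 to 246 and 10.5 to 64.6). Lsd-2 was at a like level, 603 to 2028 CPM in heads and 829 to 2038 in guts, and bmm had the higher median in guts, at 165 to 363 against 0 to 264 CPM. Male heads of the WT and P58S set stood at 331 to 706 CPM for FASN1 and 646 to 1575 for Lsd-2.

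The genes whose pattern over the 14 groups of male heads lay nearest to that of FASN1, by the root mean square distance between centred log2 group means over 9513 genes, were ncm (0.11), l(2)k09848 (0.119) and Syx5 (0.121), where the median gene stood at 0.329. Over the 37 comparisons 50 of 370 member values were called, and 30 of the 50 calls were not ended by leaving out any 1 library. Reads were counted per gene, and whether strand was used is not given in the sources used here. Reads from genes that overlap a member (Nup44A at ACC, Cse1 and CG13280 at mdy, Zyx at apolpp, CG14102 at the end of SREBP and CG10214 at the end of Lsd-1) could then not be told apart from its own.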

How the data were processed

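RNA of whole male heads, female heads and female guts was extracted with phenol and chloroform and sequenced from the 3′ end of transcripts (a V2 3′ mRNA kit for males, a QuantSeq 3′ forward kit for females), per the labels' protocols. Reads were placed on dm6, per the submitters' processing notes; no aligner, counter or strand setting is given in the sources used here. The male table holds raw counts as deposited; 6166 of its 23996 features are not genes, took 0.1696% to 0.2597% of the reads and were left out. The female tables, named CPM, hold log2 values as deposited with a constant floor (-0.49 in heads, -1.34 in guts). Taking the floor off after raising 2 to the value gave CPM, and 100.0% of 284931 values were then within 0.1 read of a whole number. The tests had been planned for plain CPM.

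Male counts were fitted with edgeR 4.0.16 in R 4.3.3 (TMM factors, filterByExpr, quasi-likelihood test), separately for the WT and P58S set and the kay set, each over all of its groups. Standard errors were derived from the fold change and the F statistic of the test. Female CPM were tested with limma 3.58.1 (trend) on log2(CPM + 1) for genes at 1 CPM or more in at least 4 libraries, each tissue over all of its groups. A call is an adjusted p (Benjamini and Hochberg, over all genes of the set, two-sided) under 0.05. Groups and ages came from the labels. The alternatives were other size factors, DESeq2 1.42.0, no filter, other pseudocounts, the replicate number as a block and each library left out; edgeR on the recovered female reads and leaving out both shallowest female head libraries were added after the data were seen. The fits were tested on simulated data.

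The 10 genes and all lists were chosen with earlier results of these data known. Libraries or group ranges are printed for members called in a set, though not for every group. At most 3 other pathway genes per set of comparisons are named, those called with the largest fold change, and the 3 genes nearest to FASN1. Genes named beyond these, such as AkhR in other arms, Men and the libraries of mag, were chosen after their values were seen. Of the male gene identifiers 17751 were found in the annotation, whose dm6 coordinates are given. Same-numbered libraries of compared groups had deviations correlated at -0.40 to 0.26, in no comparison over 0.1 for all 4 numbers, so the numbers were not taken to pair libraries. No 2 libraries of a group agreed within sampling noise. Limits from a count of 0 are 3 reads and cover counting error only.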

Additional observations from a re-analysis of the deposited data

Results flagged for a closer look

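In 220 groups of 4 libraries, 1 for each gene in each group, 12 had a library far from the other 3, and chance alone gives such a library in about 1 group in 20. In females, FASN1 stood at 1003 CPM in replicate 1 of WT heads at day 5, beside 549 to 582 in the others, Desat1 at 1303 CPM in replicate 1 of P58S heads at day 5, beside 956 to 978, and Lsd-2 at 2028 CPM in replicate 4 of WT heads at day 20, beside 1636 to 1699. In P58S guts at day 20, Desat1 stood at 263 CPM in replicate 1, beside 437 to 448. In P58S male heads, apolpp stood at 6968 CPM in replicate 3 at day 5, the library that stood apart over all genes, beside 4250 to 4629, and at 4839 CPM in replicate 1 at day 15, beside 5441 to 5559. There mdy stood at 20.6 CPM in replicate 3 at day 15, beside 23.6 to 23.9, and at 33.6 CPM in replicate 1 at day 20, beside 23.3 to 24.9. Lsd-2 stood at 1154 CPM in replicate 1 of P58S male heads at day 20, beside 1514 to 1575. In the kay set, Desat1 stood at 1516 CPM in replicate 2 of KayWT at day 15, beside 1196 to 1212, Lsd-1 at 80.3 CPM in replicate 1 of the driver at day 15, beside 65.4 to 67.9, and bmm at 106 CPM in replicate 4 of KayKD at day 5, beside 90.7 to 92.6.

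The P58S effect on FASN1 in male heads differed between day 20 and day 5 by the test of that difference, -0.74 (SE 0.15, edgeR adjusted p = 0.0259).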

How the results depend on the processing

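No value of a member that was called changed direction under any alternative run. All 47 male calls were kept by DESeq2 and by other size factors, and all 3 female calls by edgeR on whole reads, by rescaled CPM and by a pseudocount of 5 CPM. With no low-count filter FASN1 with the driver (adjusted p = 0.0607) and AcCoAS in KaySCR (adjusted p = 0.0603) lost their ageing calls, and a pseudocount of 0.1 CPM ended that of Lsd-1 in WT female heads (adjusted p = 0.0537). With no filter on low values the female head ageing count went from 3 to 1, and with a pseudocount of 5 CPM the female gut count for P58S against WT went from 0 to 1 (apolpp, -0.95, adjusted p = 0.0489); the cause was not tested. Leaving out each library in turn gave 1 to 2 members called for P58S against WT in male heads (2 with all), 13 to 19 for ageing (15), 0 to 1 for the difference of the effect between ages (1), 5 to 8 for day 20 against 15 (6), 3 to 10 for the kay arms against the driver (7, with 3 without driver day 5 replicate 2), 9 to 14 for ageing in the kay set (12), 0 to 2 for its difference between arms (0, with 2 without driver day 5 replicate 1) and 3 to 4 for KayKD against KayWT (4). In females it gave 1 to 5 for head ageing (3), 0 to 1 for P58S against WT in guts (0), and 0 for the others. DESeq2 called 9 more member values. Among them were AcCoAS in WT male heads at day 20 against day 5 (0.36, DESeq2 adjusted p = 0.0484) and in KayKD against the driver at day 5 (0.41, adjusted p = 0.0376). With age they included ACC in KayWT (0.53, adjusted p = 0.0257) and Lsd-2 in KaySCR (0.44, adjusted p = 0.0213). Over all genes DESeq2 called over 1.5 times as many in 6 of the WT and P58S male comparisons (up to 310 in place of 190) and in 12 of the kay set (up to 547 in place of 317). Without both shallowest libraries P58S female head ageing had 88 genes called in place of 26, and edgeR on whole reads called 18 in place of 5 for P58S against WT at day 5. In guts, no filter on low values took the counts of 12 to 33 genes to 5 to 18.

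The replicate number as a block gave 2, 15, 1, 6, 6, 10, 0 and 4 members called for the male results in the same order, and 2 for female head ageing; the numbers do not pair the libraries, and every other female count under the block was 0.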
